A study of Mus musculus with 4 samples.

Results

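The desmosomal cadherins and plaque genes described here are 10 genes, the desmocollins *Dsc1*, *Dsc2* and *Dsc3*, the desmogleins *Dsg1a*, *Dsg2* and *Dsg3*, the plakophilins *Pkp1*, *Pkp2* and *Pkp3*, and desmoplakin (*Dsp*). They were chosen by name, as all non-control probes of the arrays that carry one of these gene names, and make up 10 of the 29924 gene names on the array. They are measured by 16 probes, of which 13 were bright enough to be tested. RNA came from mouse ureters (outbred NMRI background) that were explanted at birth and cultured for 8 days. *Pparg-cKO* ureters (*Pax2-cre/+;Pparg fl/fl*) lack the loxP-flanked exons 2 and 3 of *Pparg*, a nuclear receptor, in the ureteric epithelium, where the *Pax2-cre* driver is active. Control ureters were littermates without the cre transgene that carried at least 1 floxed allele. Ureters of each genotype were cultured with 2 µM purmorphamine, an agonist of SHH signaling, or with its solvent DMSO alone. Each group holds 1 male and 1 female pool, which gives 8 pools on 4 two-color arrays of 1 slide, and the DMSO and purmorphamine pools of a genotype and sex share an array. Dyes were swapped between the sexes, so sex and dye orientation cannot be told apart. The labels do not say how many ureters a pool holds. In whole ureters, fewer cells of a type and less RNA per cell cannot be told apart.

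Desmosomes are the adhesive junctions that tie epithelial cells to one another and anchor their keratin filaments. Desmocollins and desmogleins span the membrane and bind their counterparts on the neighboring cell. Inside the cell, plakoglobin and plakophilins gather at the cadherin tails, and desmoplakin links this plaque to keratin. Simple and transitional epithelia, the urothelium among them, mainly use *Dsc2* and *Dsg2*, whereas *Dsc1*, *Dsg1* and *Pkp1* are typical of the differentiating layers of stratified squamous epithelium such as the epidermis, and *Dsc3* and *Dsg3* of its basal layers.

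Levels are given as normalized log2 intensities, on which 1 unit is a 2-fold difference and probes at background lie near 6. Per channel, between 66.3% and 70.5% of spots were well above background and 0 spots were saturated. Intensities of different probes are not compared, since probes bind with different efficiency. The *Pparg* probe does not check the genotype, because the mutant mRNA without exons 2 and 3 is stable. Its log2 intensity with DMSO was 14.79 and 15.31 in the male and female control pools and 15.55 and 15.58 in the *Pparg-cKO* pools. The female *Pparg-cKO* pool with DMSO stood apart in the genes described here, and results that rest on it are given by pair, male against male and female against female.

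The probes map to 5 places in the genome (build mm9, as the scanner files give it). The plakophilin probes are on chromosome 1 for *Pkp1* (137768027 to 137768086), chromosome 16 for *Pkp2* (16272648 to 16272707) and chromosome 7 for *Pkp3* (148276140 to 148276199), those of *Dsp* are on chromosome 13, and those of all cadherins share 1 other chromosome. *Dsp*, the plaque protein that all desmosomes share, has a probe that crosses an exon junction, since its 60 bases align over a span of 1100 bases. Its sequence is shown because it was the *Dsp* probe that passed the fold rule described below, and 1 of its 3 reading frames has no stop codon (plus strand, chr13:38285480-38286579, 5′ to 3′, in lower case throughout):
Dsp: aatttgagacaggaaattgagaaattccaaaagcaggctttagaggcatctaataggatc

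Of the 10 genes, *Dsc1* and *Dsc2* were higher in *Pparg-cKO* than in control ureters with DMSO. *Dsc1* reached at least 19.3 times the control level, and *Dsc2*, the desmocollin of urothelium, rose 3.72-fold. By the brightest probe of each, the desmoglein of simple epithelia, *Dsg2*, and the plaque genes *Pkp2*, *Pkp3* and *Dsp* differed by less than 0.5 on the log2 scale. A dimmer *Dsp* probe gave 0.53. With purmorphamine, *Dsc1*, *Dsg3* and *Pkp2* fell in *Pparg-cKO* ureters. None of the 9 tested genes passed the test in control ureters, where *Dsc1* was at background and could not show a fall. Tests are limma fits on all 20231 measured genes with Benjamini-Hochberg adjustment, and a gene is called changed at an adjusted p under 0.05.

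**Figure D1:**
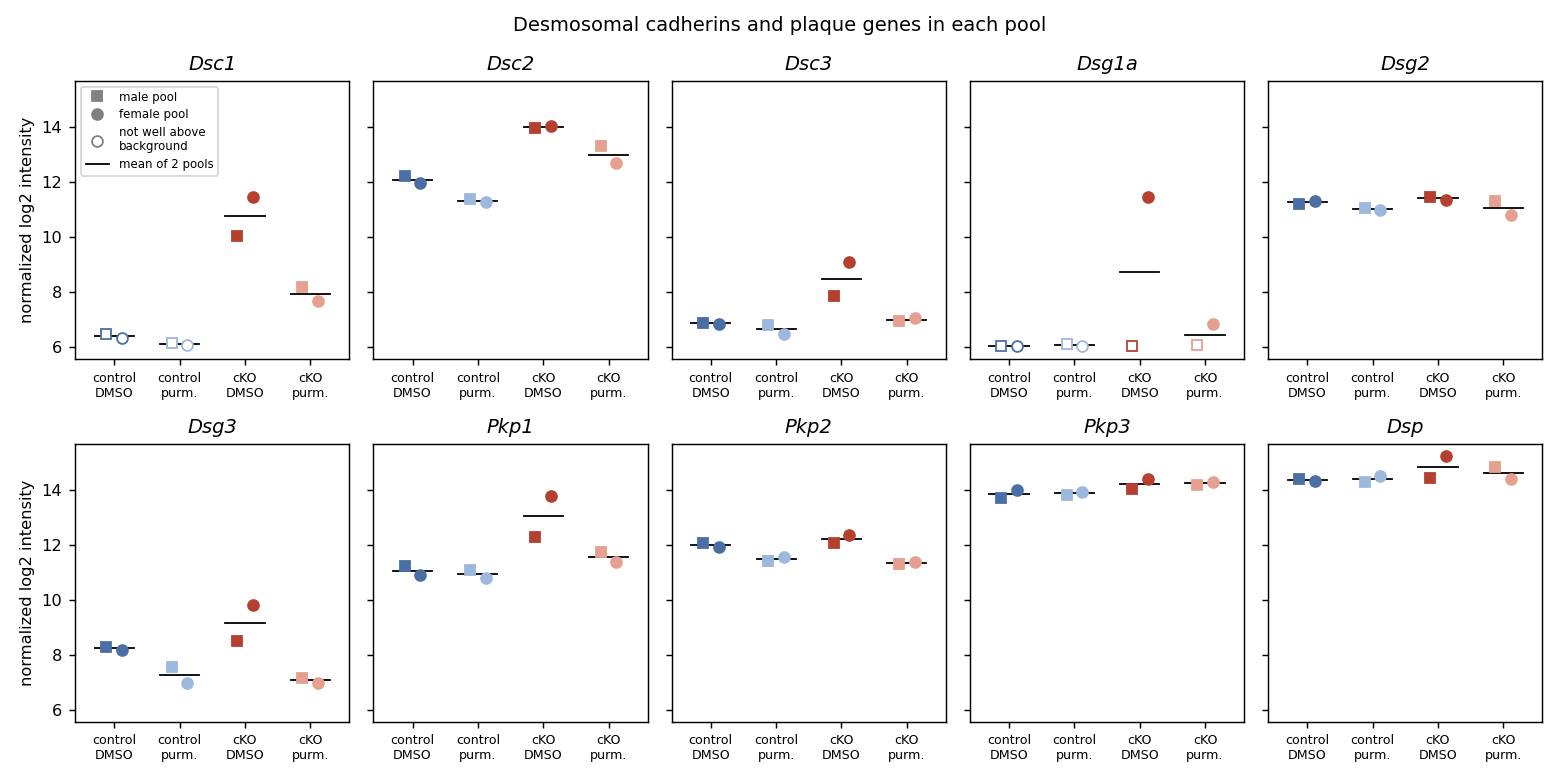
Normalized log2 intensity (y axis) of the 10 genes in the 4 groups (x axis; cKO, Pparg-cKO; purm., purmorphamine), with squares for male and circles for female pools, open symbols where the probe was not well above background and a line at the mean of 2 pools. Dsc1 and Dsc2 are higher in both Pparg-cKO pools with DMSO than in both control pools, Dsg1a is at background except in the female Pparg-cKO pools, Dsg2 and Pkp3 lie close together in all groups, and Dsp does so apart from the female Pparg-cKO pool with DMSO.

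*Dsc1*, a desmocollin of the upper epidermal layers, was not well above background in any control pool. With DMSO its log2 intensity was 6.48 and 6.36 in the male and female control pools and 10.05 and 11.47 in the *Pparg-cKO* pools. With purmorphamine it was 6.18 and 6.10 in control and 8.18 and 7.69 in *Pparg-cKO*. Both *Pparg-cKO* pools thus lay above both control pools under either condition, and the DMSO pools of *Pparg-cKO* were the highest. The fitted difference between genotypes with DMSO was 4.34 ± 0.43 (SE; limma, adjusted p = 0.00479). *Dsc1* entered this test through its *Pparg-cKO* pools alone, and its control level is known only as a bound. Set against the weakest signal above background, *Dsc1* was at least 19.3-fold higher over both pairs, at least 11.9-fold for the male pair and at least 31.4-fold for the female. Purmorphamine lowered *Dsc1* in *Pparg-cKO* by a log2 difference of -2.83 ± 0.44 (limma, adjusted p = 0.038), by -1.87 on the male array and -3.78 on the female. With purmorphamine the level in *Pparg-cKO* was still at least 3.02-fold that of control, but that difference did not pass the test (1.80 ± 0.43, limma, adjusted p = 0.0883).

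*Dsc2* is the widely expressed desmocollin, and it was bright in every pool. With DMSO its log2 intensity was 12.23 and 11.96 in the male and female control pools and 13.96 and 14.03 in the *Pparg-cKO* pools. With purmorphamine it was 11.39 and 11.27 in control and 13.30 and 12.69 in *Pparg-cKO*. Every *Pparg-cKO* pool lay above every control pool. *Dsc2* was the only one of the tested genes that was called under both conditions, by a log2 difference of 1.90 ± 0.20 with DMSO (limma, adjusted p = 0.00552) and of 1.67 ± 0.20 with purmorphamine (limma, adjusted p = 0.0136). The male and female pairs with DMSO gave similar differences, 1.73 and 2.06. In response to purmorphamine *Dsc2* had a log2 fold change of -0.77 ± 0.18 in control (limma, adjusted p = 0.121) and of -0.997 ± 0.18 in *Pparg-cKO* (limma, adjusted p = 0.0515). All 4 arrays gave a lower *Dsc2* level with purmorphamine, yet neither comparison passed the test.

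*Dsc3*, the desmocollin of basal squamous layers, was low. Its log2 intensity with DMSO was 6.88 and 6.86 in control and 7.87 and 9.12 in *Pparg-cKO*, in the male and female pools. With purmorphamine the 4 pools lay between 6.51 and 7.07. Both *Pparg-cKO* pools with DMSO were above all other pools. The difference between genotypes with DMSO, 1.62 ± 0.36, missed the threshold (limma, adjusted p = 0.0637), as did the response to purmorphamine in *Pparg-cKO*, -1.48 ± 0.28 (limma, adjusted p = 0.0545). The second *Dsc3* probe gave 1.21 and -1.12 for these differences.

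*Dsg1a* codes for a desmoglein of the upper epidermis and is the gene that could not be tested. Its log2 intensity was between 6.04 and 6.12 in the 4 control pools and was 6.05 and 6.09 in the male *Pparg-cKO* pools with DMSO and purmorphamine. None of these 6 pools was well above background. In the female *Pparg-cKO* pools it was 11.46 with DMSO and 6.84 with purmorphamine. The female pool with DMSO was therefore at least 31.2-fold above the female control pool, whereas neither pool of the male pair passed the background flag. In a fit that kept all probes the difference between genotypes with DMSO was 2.71 ± 1.57 (limma, adjusted p = 0.581).

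The paralogs *Dsg1b* and *Dsg1c*, which are close in sequence so that cross-hybridization cannot be told apart from expression, were measured in both sexes. Neither was well above background in any control pool. *Dsg1c* had log2 intensities of 8.26 and 9.72 in the male and female *Pparg-cKO* pools with DMSO, and of 7.43 and 7.06 with purmorphamine. With DMSO it exceeded the control level at least 5.89-fold and passed the test (2.76 ± 0.42, limma, adjusted p = 0.0184), which it had entered through its *Pparg-cKO* pools alone. *Dsg1b* was 7.47 and 9.80 in the *Pparg-cKO* pools with DMSO, at least 4.61-fold above control, with an adjusted p of 0.095 (limma). For each of the *Dsg1* genes the female *Pparg-cKO* pool with DMSO was the highest of the 8 pools.

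*Dsg2*, the desmoglein of simple epithelia and urothelium, was nearly level. Its log2 intensity lay between 10.80 and 11.46 over the 8 pools, and the difference between genotypes with DMSO was 0.15 with a 95% interval from -0.23 to 0.54. A second probe gave 0.14, with differences of 0.81 for the male pair and -0.54 for the female, so its pairs had opposite signs. The third *Dsg2* probe, which matches another transcript, was not well above background in any pool.

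*Dsg3*, the desmoglein of basal squamous layers, differed mainly by treatment. With DMSO its log2 intensity was 8.29 and 8.19 in the male and female control pools and 8.50 and 9.84 in the *Pparg-cKO* pools. With purmorphamine it was 7.57 and 6.98 in control and 7.17 and 6.99 in *Pparg-cKO*. All 4 pools with purmorphamine lay below all 4 pools with DMSO. The fall in *Pparg-cKO* was -2.09 ± 0.37 (limma, adjusted p = 0.0476), the male array giving -1.33 and the female -2.84. In control it was -0.97 ± 0.37 and did not pass (limma, adjusted p = 0.242). The difference between genotypes with DMSO did not pass the test (0.93 ± 0.41, limma, adjusted p = 0.346). A second tested probe gave 0.82 for this difference (limma, unadjusted p = 0.0379), and -1.35 in *Pparg-cKO* and -0.70 in control for the response to purmorphamine.

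Among the plakophilins, which strengthen the plaque and bind desmoplakin, *Pkp1* of squamous epithelium was higher in both *Pparg-cKO* pools with DMSO. Its log2 intensity was 11.23 and 10.91 in the male and female control pools and 12.30 and 13.79 in the *Pparg-cKO* pools, and with purmorphamine the 4 pools lay between 10.79 and 11.73. The groups with DMSO did not overlap, but the pairs differed widely, 1.07 in males and 2.88 in females, and the fit missed the threshold (1.98 ± 0.44, limma, adjusted p = 0.0654). The fold rule counted *Pkp1* as higher.

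*Pkp2*, the plakophilin of simple epithelia, was lower in all pools with purmorphamine, and a difference between genotypes was not detectable. With DMSO its log2 intensity was 12.06 and 11.94 in the male and female control pools and 12.08 and 12.36 in the *Pparg-cKO* pools. With purmorphamine it was 11.43 and 11.57 in control and 11.29 and 11.38 in *Pparg-cKO*. The treatments did not overlap in either genotype. The fall was -0.88 ± 0.12 in *Pparg-cKO* (limma, adjusted p = 0.0314), with -0.79 and -0.98 in the male and female arrays. In control it was -0.50 ± 0.12 (limma, adjusted p = 0.125). The difference between genotypes with DMSO was 0.22 with a 95% interval from -0.08 to 0.52.

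*Pkp3*, the plakophilin found in most epithelia, changed least with purmorphamine. Its log2 intensity lay between 13.70 and 14.38 in all pools, with a response of 0.03 ± 0.12 in control and 0.02 ± 0.12 in *Pparg-cKO*. It was slightly higher in *Pparg-cKO* in each of the 4 pairs, by 0.34 to 0.38, without passing the test (0.36 ± 0.15 with DMSO, limma, adjusted p = 0.326).

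*Dsp* was bright in every pool by 1 of its 2 probes. Its log2 intensity with DMSO was 14.38 and 14.34 in the male and female control pools and 14.42 and 15.22 in the *Pparg-cKO* pools, and with purmorphamine the 4 pools lay between 14.27 and 14.82. With DMSO the genotypes were close in the male pair but not in the female, and the fitted difference was 0.46 with a 95% interval from -0.18 to 1.10. The junction probe printed above gave 0.53 with DMSO (limma, unadjusted p = 0.0482) and 0.72 with purmorphamine (limma, unadjusted p = 0.0147). It was dimmer, between 8.20 and 9.25, and higher in *Pparg-cKO* in all 4 pairs.

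**Figure D2:**
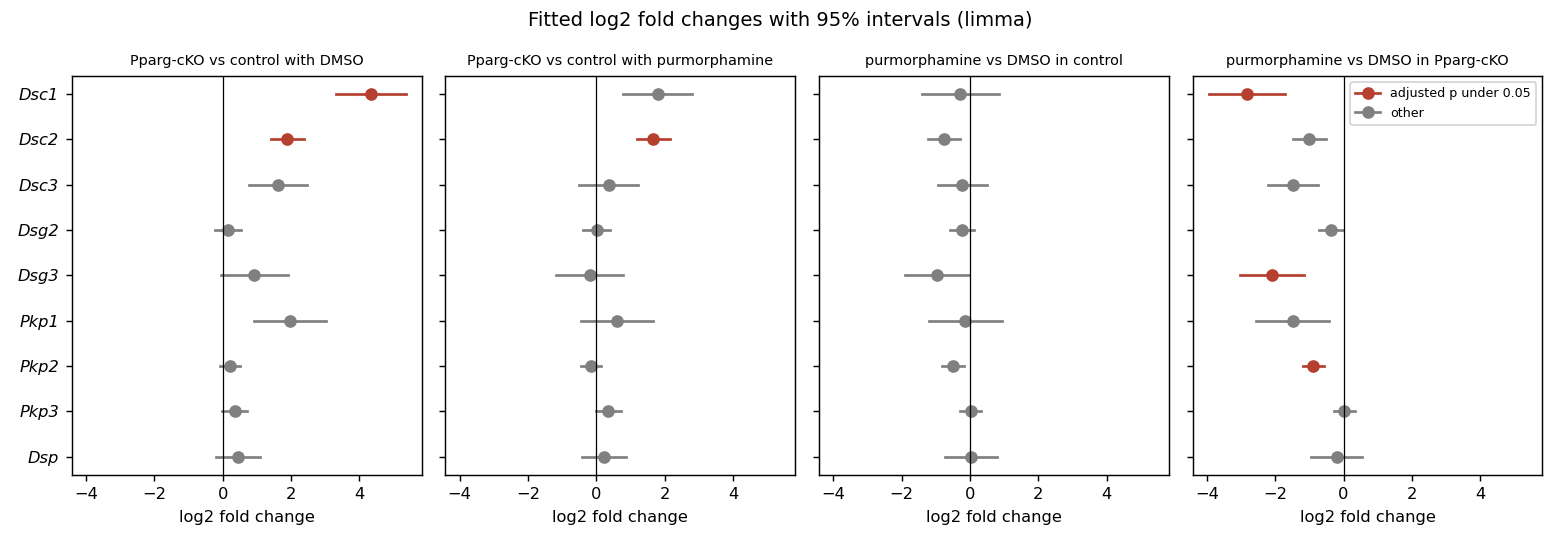
Fitted log2 fold change (x axis) of the 9 tested genes (y axis) in 4 comparisons, with 95% intervals as lines and genes with an adjusted p under 0.05 in red. Dsc1 and Dsc2 are higher in Pparg-cKO with DMSO, Dsc2 also with purmorphamine, and Dsc1, Dsg3 and Pkp2 are lower with purmorphamine in Pparg-cKO.

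In counts, 2 of the 9 tested genes were called higher and 0 lower in *Pparg-cKO* with DMSO, where 2% of the 20231 genes were called higher. Of the 9, *Dsc1* passed the filter on dim probes only through the group in which it was high. At an unadjusted p under 0.05 (limma), 4 of the 9 were higher and 0 lower, against 1618 higher and 1571 lower of the 20231 genes. The median log2 fold change was 0.93 over the 9 genes and 0.00 over all genes tested, and it stays at 0.93 with *Dsc1* at its bound. With purmorphamine 1 of 9 was called higher, against 1.24% of all genes, and the median of the 9 was 0.36. The responses to purmorphamine gave 3 of 9 called lower in *Pparg-cKO*, where 3.1% of all genes were, and 0 of 9 in control, where 1.12% were. *Dsc1* is among the 9 in control, although at background it could not show a fall there. In control 3 of the 9 had an unadjusted p under 0.05 (limma), all lower, against 1978 higher and 1990 lower of the 20231 genes. In *Pparg-cKO* 7 of the 9 did, all lower, against 1994 higher and 2501 lower of the 20231 genes. The median response of the 9 genes was -0.997 in *Pparg-cKO* and -0.23 in control. The *Pparg-cKO* pools with DMSO enter both the comparison of genotypes and that of treatments, so a high value in them raises the first and lowers the second.

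Whether the response to purmorphamine differed between the genotypes was tested directly. The test called 0 of the 9 genes and 0% of all genes (limma, lowest adjusted p = 0.834 over all genes). At an unadjusted p under 0.05, 320 of all genes were higher and 351 lower, among them *Dsc3*, with a difference of -1.26 ± 0.40 (limma, adjusted p = 0.9998). *Dsc1* was at background in all control pools, so its response in control was not measured and no difference of responses is given for it. A fall in *Pparg-cKO* that goes beyond that in control was therefore not shown for any of these genes.

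The study's methods used a fold rule without a test, with an intensity threshold of 100 and a change of at least 1.5-fold in both replicates. The threshold was applied here to the brighter pool of each replicate, on scaled intensities. It counted 4 of the 10 genes as higher in *Pparg-cKO* with DMSO, *Dsc1*, *Dsc2*, *Pkp1* and *Dsp*, against 1.33% of all 29924 gene names. *Dsp* was counted through the junction probe and not through its bright probe. With purmorphamine it counted *Dsc2* and *Dsp* as higher, against 1.56% of all gene names. As lower with purmorphamine in *Pparg-cKO* it counted *Dsc1*, *Dsc2*, *Dsg3* and *Pkp2*, against 2.47%, and in control *Dsc2* alone, against 1.89%. The rule and the test thus shared *Dsc1* and *Dsc2* with DMSO, *Dsc2* with purmorphamine, and *Dsc1*, *Dsg3* and *Pkp2* for the response in *Pparg-cKO*.

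The calls of *Dsc1* and *Dsc2* with DMSO were lost without either control array (limma, adjusted p from 0.0663 to 0.0978, with 3 arrays left), while their log2 fold changes lay between 3.65 and 5.05 and between 1.77 and 2.02 over all 4 omissions. Both calls remained without either *Pparg-cKO* array. Without the male *Pparg-cKO* array, *Dsc3* and *Pkp1* were called as well, with 2.25 and 2.73. The call of *Dsc2* with purmorphamine was kept without the female *Pparg-cKO* array and lost without any of the other 3 arrays. The falls with purmorphamine in *Pparg-cKO* were less stable. *Dsc1* lost its call without either control array (limma, adjusted p = 0.0544), *Dsg3* without either control array or the female *Pparg-cKO* array, where it went from -2.09 to -1.33, and *Pkp2* without either *Pparg-cKO* array. All 3 falls also lost their calls on the scanner's processed signals (limma, adjusted p from 0.113 to 0.163) and when dim probes were kept in the fit (limma, adjusted p from 0.0557 to 0.106).

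The mouse desmosomal cadherin genes form 1 cluster on chromosome 18, where their probes lie between positions 20122029 and 20761236 (mm9), and the rule by name did not use this order. In the RefSeq annotation (GRCm38.p6) the protein-coding genes there run *Dsc3*, *Dsc2*, *Dsc1*, *Dsg1c*, *Dsg1a*, *Dsg1b*, *Dsg4*, *Dsg3* and *Dsg2*. With DMSO the fitted log2 differences between genotypes of the genes measured in both were 1.62 at *Dsc3*, 1.90 at *Dsc2*, 0.93 at *Dsg3* and 0.15 at *Dsg2*. *Dsc3* and *Dsg3* were dim, so the added offset shrinks their differences more than those of *Dsc2* and *Dsg2*, and the sizes are not ranked. The genes between *Dsc2* and *Dsg3* were at background in control, and there only bounds can be given, at least 19.3-fold at *Dsc1*, 5.89-fold at *Dsg1c* and 4.61-fold at *Dsg1b*. Of the other genes in this inner stretch, *Dsg1a* was above background in the female *Pparg-cKO* pools alone, and *Dsg4*, the desmoglein of hair, in no pool. Next to *Dsg2* lies *Ttr*, which codes for the carrier protein transthyretin. *Ttr* went the other way, with log2 intensities of 10.58 and 11.11 in control and 6.91 and 7.59 in *Pparg-cKO* with DMSO (-3.59 ± 0.47, limma, adjusted p = 0.0107). In *Pparg-cKO* it rose with purmorphamine by 1.24 ± 0.19 (limma, adjusted p = 0.0367). The rise of *Ttr* in control was 1.11 ± 0.19 and did not pass the test (limma, adjusted p = 0.0728). The further flanking genes *Cdh2*, a classical cadherin, and *B4galt6* differed by 0.13 and -0.04 between genotypes with DMSO.

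**Figure D3:**
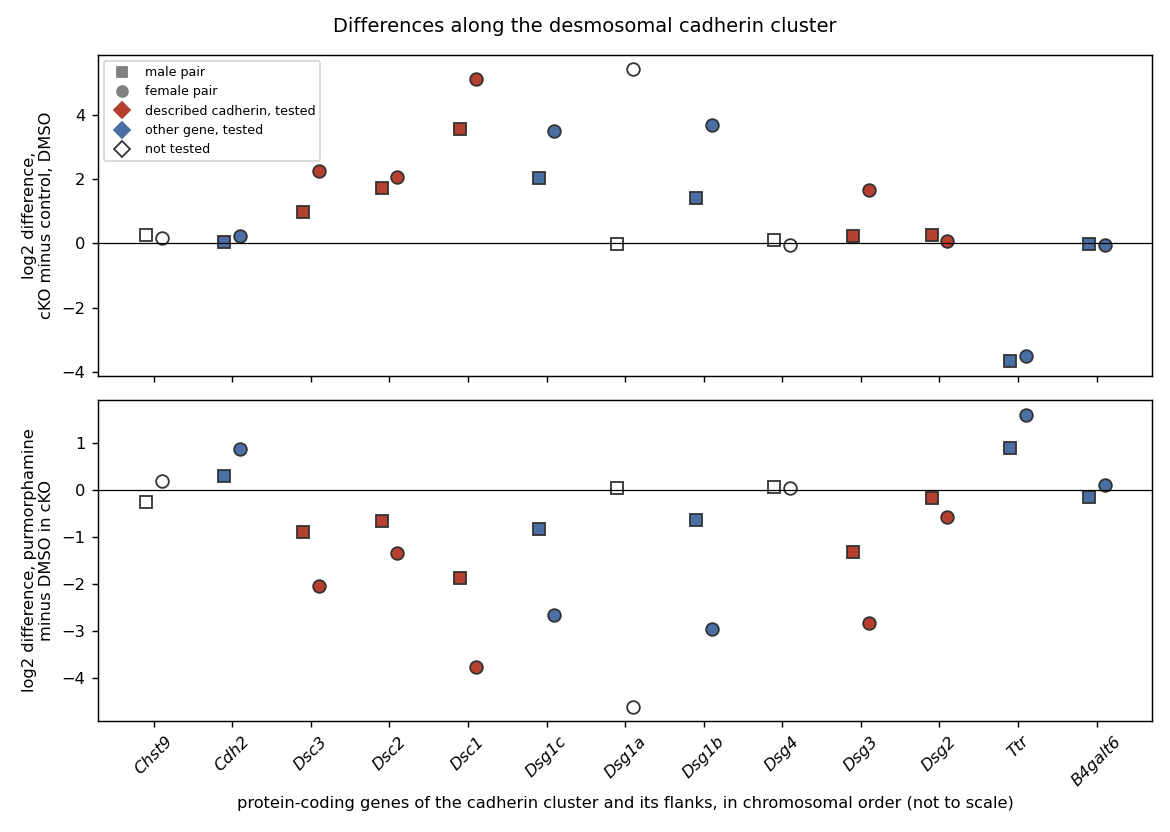
Log2 differences (y axes) of the protein-coding genes of the cadherin cluster and its flanks in chromosomal order (x axis, not to scale), as Pparg-cKO minus control with DMSO (top) and purmorphamine minus DMSO in Pparg-cKO (bottom), with squares for the male and circles for the female pair and open symbols for genes not tested. Values above 0 in the top panel are highest at Dsc1 and, in the female pair alone, at Dsg1a, genes at background in control, and Ttr lies below 0 in both pairs.

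Of 9 other desmosome genes, 8 were tested, and *Dsg1c* was the 1 called higher with DMSO, having passed the filter on dim probes only through the group in which it was high. None of the 8 was called in the other comparisons. Plakoglobin (*Jup*), the armadillo protein of the plaque, had a difference of 0.25 ± 0.16 with DMSO (limma, adjusted p = 0.554), and the plakins *Ppl* and *Evpl*, which join the cornified envelope, had 0.29 and 0.00. The tetraspan protein *Perp* had 0.00 with DMSO and -0.55 with purmorphamine. The median over the 8 genes was 0.20 with DMSO. Of the 13 genes of adherens junctions, which tie actin rather than keratin to cell contacts, all were tested and 0 were called in any comparison, with a median of 0.06 with DMSO.

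By the smallest root mean square difference of centred log2 levels over the 8 pools, the genes most like *Dsp* were *Cenpf*, *Irgm1*, *Jup*, *Oas1e* and *Plcxd3* (0.11 to 0.15, with an SD of *Dsp* itself of 0.32). The partner of desmoplakin in the plaque, *Jup*, was among these 5 genes, with log2 intensities between 8.35 and 8.91. *Cenpf* was near background, between 6.42 and 7.28, and shared regulation was not tested. The genes most like *Dsc1* included *Krt17*, *Tac2*, *Apela* and *Serpinb10* (0.51 to 0.68, with an SD of *Dsc1* itself of 2.00). *Krt17*, a keratin of stratified and stressed epithelia, had log2 intensities with DMSO of 7.65 and 6.71 in the male and female control pools and of 9.88 and 11.63 in the *Pparg-cKO* pools, and was named for its likeness to *Dsc1*.

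Markers of epithelial and other cells were set beside these genes. All 8 pan-epithelial markers were well above background in every pool, and their summed scaled intensity lay between 97369 and 106682 in all 8 pools. *Epcam*, an epithelial adhesion molecule, was the 1 of the 8 that was called, higher in *Pparg-cKO* (0.61 with DMSO) and lower with purmorphamine (-0.81 in *Pparg-cKO*). For the 10 desmosomal genes the sums with DMSO were 18647 and 18228 in the male and female control pools and 25205 and 39132 in the *Pparg-cKO* pools. The sums of the 15 squamous epithelium markers were 44159 and 39795 in control and 40285 and 156351 in *Pparg-cKO*. The female *Pparg-cKO* pool with DMSO, highest in *Dsg1a*, was thus also the highest in summed squamous markers. The median log2 intensity over these 15 genes was 10.19 and 9.22 in the male and female control pools with DMSO and 10.73 and 14.63 in the *Pparg-cKO* pools. In that female pool the cornified envelope genes *Lor* and *Sprr1b* had log2 intensities of 15.69 and 15.11, and in the male pool 9.93 and 6.27. Of these markers, 2 of 13 tested were called higher with DMSO, *Krt17* and *Krt4*, and *Lor* and *Sprr1b* were not among them. Between genotypes with purmorphamine, *Ivl* and *Krt4* were called, 1 higher and 1 lower. For the response to purmorphamine, *Krt4* was called lower in control, and *Krt4* and *Krt6a* were called lower in *Pparg-cKO*. The 5 genes of corneodesmosomes, the desmosomes of cornified cells, summed to 1230 in the female *Pparg-cKO* pool with DMSO and to between 75 and 109 in all others, where 75 is the sum of 5 genes at the floor of 15. In the male *Pparg-cKO* pool with DMSO the corneodesmosome sum was 88.2. The squamous sum of that pool lay between those of the control pools with DMSO, and its squamous median lay above both. *Dsc1* and *Dsc2* also lay above both control pools. Of the 6 superficial urothelium markers, 4 were called lower in *Pparg-cKO* with DMSO and 5 higher with purmorphamine in *Pparg-cKO*. Kidney tubule markers were dim, with 5 of 6 well above background in each *Pparg-cKO* pool with DMSO and 1 to 4 in the other pools, and 2 of 5 tested, *Umod* and *Slc12a1*, were called higher in *Pparg-cKO* with DMSO and lower with purmorphamine. Their summed scaled intensity was 295 and 336 in the *Pparg-cKO* pools with DMSO and 99.1 to 181 in the others. *Umod* and *Slc12a1* passed the filter on dim probes only through *Pparg-cKO* groups, so the filter favors a higher call there. With DMSO, *Slc12a1* was at background in the controls of both sexes, and *Umod* in the female control. There only bounds can be given, at least 2.33-fold for *Slc12a1* over both pairs and 6.55-fold for *Umod* in the female pair. The purmorphamine pools also differed in other markers. Summed scaled intensity of the 10 mesenchyme and smooth muscle markers was 159883 to 187689 with DMSO and 249375 to 294311 with purmorphamine, with 0 of 10 called in either genotype. The 6 basal urothelium markers summed to between 69061 and 108237 with DMSO and to between 39314 and 66530 with purmorphamine, and *Krt15* was the 1 called lower, in both genotypes. Of the 5 leukocyte markers *Adgre1* was called lower, with purmorphamine in *Pparg-cKO* (-1.06). Its fall in control was -1.12 and did not pass the test (limma, adjusted p = 0.0528). Of the 5 endothelial markers, *Cdh5* (1.25) and *Tek* were called higher with purmorphamine in *Pparg-cKO*, *Tek* also in control. The rise of *Cdh5* in control was 1.31 and did not pass the test (limma, adjusted p = 0.0643). *Kdr* was called higher in *Pparg-cKO* with DMSO (0.88, limma, adjusted p = 0.0348). The 5 fat cell markers summed to 63557 and 72872 in the male and female control pools with DMSO and to 31203 and 25210 in the *Pparg-cKO* pools. With purmorphamine these sums were 65996 and 50954 in control and 6511 and 35172 in *Pparg-cKO*. Between genotypes 0 of the 4 tested fat cell markers were called, with a median log2 fold change of -1.66 with DMSO and -2.61 with purmorphamine. The part of these cell types in the levels of the desmosomal genes was not tested.

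**Figure D4:**
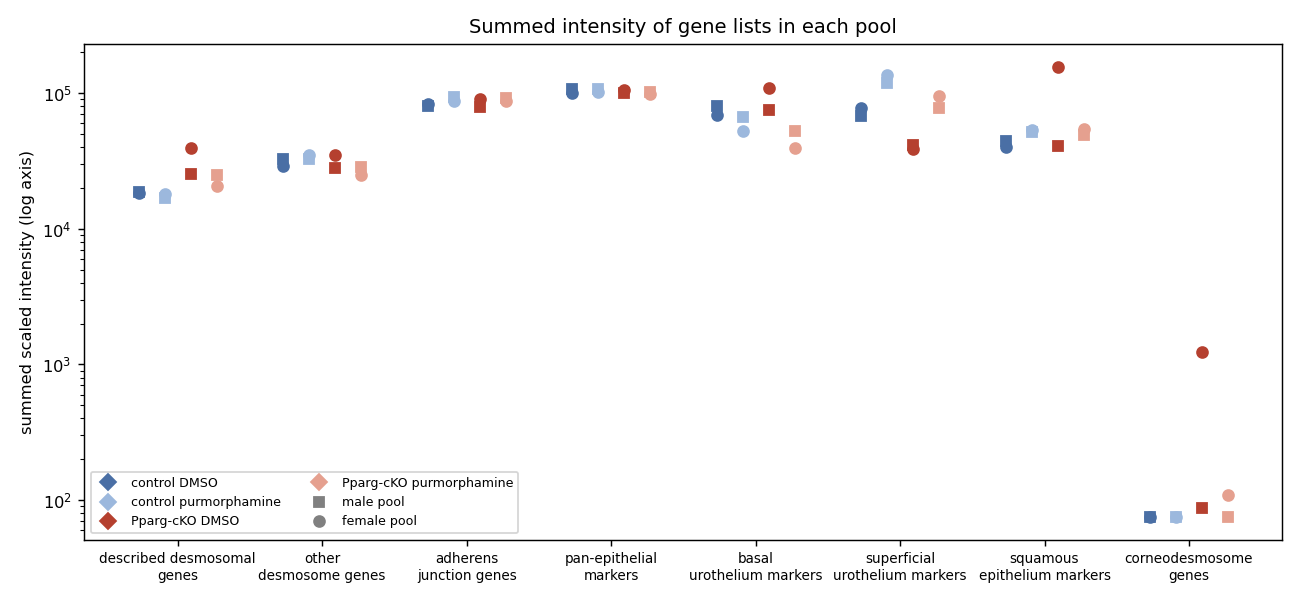
Summed scaled intensity (y axis, log scale) of 8 gene lists (x axis) in each pool, with squares for male and circles for female pools and a color for each group. The female Pparg-cKO pool with DMSO is the highest for the 10 desmosomal genes (39132), the squamous markers (156351) and the corneodesmosome genes (1230), while pan-epithelial markers lie between 97369 and 106682 in all pools.

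Of 10 transcription factors of epithelial differentiation, all were tested and *Elf5* was the 1 called higher in *Pparg-cKO* with DMSO (1.37 ± 0.17, limma, adjusted p = 0.00892). It was also higher with purmorphamine (1.17 ± 0.17, limma, adjusted p = 0.0206). *Trp63*, which codes for p63, a regulator of stratified epithelia, was lower in *Pparg-cKO* with purmorphamine (-1.11, limma, adjusted p = 0.0106). With DMSO its difference was -0.51 and did not pass the test (limma, adjusted p = 0.0786). The response of *Trp63* to purmorphamine was -0.60 in *Pparg-cKO*, which did not pass either (limma, adjusted p = 0.0511), and -0.001 in control. *Grhl3*, a factor of terminal differentiation, rose with purmorphamine in *Pparg-cKO* by 0.75 (limma, adjusted p = 0.0334). Its rise in control was 0.63 and did not pass the test (limma, adjusted p = 0.0731).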

How the data were processed

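RNA pools of cultured ureters were hybridized by the authors to 4 two-color Agilent arrays with 157716 non-control spots each, 4 spots a probe. The deposited scanner files hold spot intensities, flags and log10 ratios of red over green. Their headers name Feature Extraction 12.2.0.7, and the submitters' processing notes version 10.7.3.1. The deposited series table holds a signed fold change per probe and array, given the unit score here. Its log2 values had a median of 0 on each array and correlated with the within-array log2 ratios of purmorphamine over DMSO at 0.970 to 0.977 over 27066 probes, so its scale and direction are those of a fold change of purmorphamine over DMSO. Every column of values was assigned to a sample.

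Mean intensities were corrected with normexp (offset 50), normalized by loess within arrays and, for genotypes, by Aquantile between arrays, with outlier spots left out and spots of a probe averaged on the log2 scale (limma 3.58.1, R 4.3.3). A probe was tested if more than 0.5 of its spots passed the well-above-background flag in each pool of some group, which held for 27066 probes of 20231 genes, and the brightest probe stood for a gene. Genotypes were compared by a separate-channel fit (intraspot correlation 0.0561) and treatments by within-array log2 ratios, both with empirical Bayes moderation and Benjamini-Hochberg adjustment over all genes. Where a group was not well above background, folds are bounds, set against the weakest probe signal that passed this flag or the probe's own level, whichever was higher. The fold rule used processed signals scaled to a 75th percentile of 1500 with a floor of 15. Scripts were tested on simulated data. Replicates are pools, 2 per group, and the sources do not say that they came from separate cultures, so p-values measure only the spread between them. The number of arrays limits the precision. Genes named are the 10 members, list genes with their own adjusted p under 0.05 or on which a sentence turns, and the 5 genes most like *Dsp* and the member with the largest difference, of which 1 is not reported here. The members and lists were chosen with earlier results of these data known.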

Additional observations from a re-analysis of the deposited data

How the results depend on the processing

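Alternatives were the scanner's processed signals, no filter on dim probes, the mean over a gene's probes, a common 75th percentile in place of Aquantile, the replicate number as a block, leaving out each array and, chosen after seeing the data, a filter that keeps probes with exactly 0.5 of their spots above background. For single genes, 390 log2 fold changes kept their side of the threshold, 21 lost a call, 13 gained one and 17 moved, and no called value changed sign. Of the 9 genes, the number called with DMSO was 0 to 4 over the omitted arrays, with purmorphamine 0 on processed signals and 0 to 2 over the omitted arrays, and for the response in control 0 to 1. For the response in *Pparg-cKO* it was 0 on processed signals, 0 with no filter and 1 to 5 over the omitted arrays, and the difference between responses called 0 to 2. Where a group is left with 1 array, it is assumed to vary like the others, and the intraspot correlation of all arrays was kept. At 2-fold the fold rule counted 3 genes as higher in *Pparg-cKO* with DMSO and 1 with purmorphamine. For the response to purmorphamine it counted 0 genes in control and 2 as lower in *Pparg-cKO*. Shares of all gene names at 2-fold are not given, so these counts are not set against those of other genes. Over all genes, processed signals gave 279 higher and 216 lower with DMSO (405 and 388 in the fit reported), 117 and 118 with purmorphamine (250 and 386), and 0 calls for either response (82 and 226 in control, 409 and 627 in *Pparg-cKO*). Without the filter the responses gave 2 and 11 in control and 134 and 189 in *Pparg-cKO*. With 1 array left out, calls over all genes fell in some of the fits and rose in others.

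Replicate numbers share only sex and dye orientation between genotypes. Deviations of same-numbered pools correlated from -0.17 to 0.48 between groups over 27066 probes. With the replicate block, 2 of the 9 genes were called with DMSO, 1 with purmorphamine, 0 for the response in control and 4 in *Pparg-cKO*, where *Dsc3* was added (limma, adjusted p = 0.0371). With the numbers crossed, chosen after seeing the data, 5 were called for the response in *Pparg-cKO*, and the counts of the other comparisons were 2, 1, 0 and 0.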
